A study of Mus musculus with 6 samples.

Results

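The secreted ribonucleases of the RNase A family were examined in the whole pancreas of adult mice. Controls were compared with mice in which deletion of the acinar transcription factor Ptf1a was induced. Members were the genes of the deposited expression table whose symbol is Ear or Ang followed by a number, Rnase followed by a single digit, or Ang alone, which gave 4 genes of 10245: Rnase1, Ear5, Rnase4 and Ang. They were chosen with their difference between the 2 groups in view, in particular the very low Ear5 values of the mutants, so their own differences are given as a description and carry no test. The mouse annotation (GENCODE, GRCm38) holds 20 genes with names of this family, all on chromosome 14, and the other family genes were not analysed here.

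RNase A ribonucleases are small secreted proteins that cut RNA. Rnase1 is the classical pancreatic ribonuclease, made by acinar cells and released with the digestive enzymes. Ear5, whose current symbol is Rnase2b, belongs to the eosinophil-associated ribonucleases, a rodent branch of the family that was named after eosinophil granule proteins. Ang encodes angiogenin, a ribonuclease known for its action on blood vessels and on transfer RNA, and Rnase4 is a ribonuclease with a preference for uridine that shares a promoter with Ang. Rnh1 encodes the cytosolic inhibitor that binds these enzymes tightly, and Plxnb2 encodes a receptor for angiogenin.

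Of the 6 mice, 3 controls were Ptf1a(CreER/+) and 3 Ptf1a cKO mice were Ptf1a(CreER/fl), where the floxed allele is removed after tamoxifen. The paper reports that some pancreatic cells kept PTF1A after this dose, so the mutants need not lack Ptf1a in every acinar cell. The CreER cassette replaces 1 Ptf1a allele in both groups, so the controls are heterozygous for Ptf1a, and it is driven by the Ptf1a locus, which is active in acinar cells. Both groups received tamoxifen by gavage on 3 days at 0.25 mg per g, were killed on day 14, and held 1 male and 2 females each. The controls were 4 months old and the Ptf1a cKO mice 5 months old, and the stems of the mouse names also differ entirely between the groups, so neither can be told apart from genotype. Each gene has 1 value per library, a read count that the authors normalized between libraries. Differences are given on the log2 scale as Ptf1a cKO minus control, and genes outside the family were tested by limma with p-values adjusted over all genes and a threshold of 0.05.

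The sequences that set these genes apart are shown first, because the later results turn on how far reads of 1 member could be taken for another. Ear5 (GRCm38, chr14:51162260-51163018, plus strand) is a single exon of 759 bases, and Rnase1 (chr14:51144998-51146785, minus strand) has 2 exons with the coding sequence in 1 of them. The first 240 bases of their coding sequences are printed 5′ to 3′ from GENCODE transcripts, beginning at the start codon, with capitals where both genes hold the same base in a global alignment of the whole coding sequences.
Ear5: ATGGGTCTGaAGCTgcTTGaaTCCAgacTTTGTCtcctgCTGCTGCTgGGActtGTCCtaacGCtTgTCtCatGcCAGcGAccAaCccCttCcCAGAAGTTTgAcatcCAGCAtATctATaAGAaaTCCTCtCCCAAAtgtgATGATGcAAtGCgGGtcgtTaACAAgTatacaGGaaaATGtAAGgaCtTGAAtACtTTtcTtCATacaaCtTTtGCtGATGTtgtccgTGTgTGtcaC
Rnase1: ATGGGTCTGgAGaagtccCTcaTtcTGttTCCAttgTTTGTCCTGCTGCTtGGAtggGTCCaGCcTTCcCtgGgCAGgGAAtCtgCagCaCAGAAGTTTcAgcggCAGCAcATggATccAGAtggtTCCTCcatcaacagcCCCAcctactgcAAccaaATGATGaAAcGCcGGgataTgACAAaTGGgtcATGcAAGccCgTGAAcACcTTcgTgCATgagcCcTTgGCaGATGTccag
Over the whole coding sequences 253 of 417 aligned bases were identical (60.7%), and the 6 pairs among the 4 members lay between 58.3% and 65.7%. None of the 943 windows of 50 bases in the Rnase1 transcript, the length of the reads, matched another annotated transcript with up to 2 mismatches. None of the 710 windows of Ear5 was shared exactly, but 89 (12.5%) matched other eosinophil-associated ribonucleases with up to 2 mismatches, 44 of them Ear6 and 20 Ear1. Ang and Rnase4 overlap on the same strand. In the longer Ang transcript 111 of 1045 windows were also found exactly in another gene, and 20.5% were found with up to 2 mismatches, mostly in Ang2 and Rnase4. In the 2 Rnase4 transcripts 4.02% and 4.96% of windows were found elsewhere with up to 2 mismatches, among them 56 and 67 windows shared exactly with another gene. The values of Ang, Rnase4 and Ear5 are uncertain where reads fell on shared sequence.

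The 250 bases before the start sites are given from RefSeq (GRCm38.p6), with capitals at matches to 3 short motifs searched on both strands. These were CANNTG, the E-box bound by basic helix-loop-helix factors such as Ptf1a, TGGGAA, bound by its partners Rbpj and Rbpjl, and GATAAG, bound by GATA factors. The 3 motifs do not overlap in these sequences. The first is that of Ear5 (chr14:51162010-51162259, plus strand), the second that of Rnase1 (chr14:51146768-51147017, minus strand), the third the upstream promoter shared by Ang and Rnase4 (chr14:51090827-51091076, plus strand), and the fourth a further promoter of Rnase4 (chr14:51095750-51095999, plus strand).
Ear5: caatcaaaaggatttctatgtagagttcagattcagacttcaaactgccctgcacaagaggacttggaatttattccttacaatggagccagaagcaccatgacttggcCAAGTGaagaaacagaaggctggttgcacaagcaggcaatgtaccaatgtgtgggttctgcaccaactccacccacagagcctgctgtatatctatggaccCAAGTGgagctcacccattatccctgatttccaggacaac
Rnase1: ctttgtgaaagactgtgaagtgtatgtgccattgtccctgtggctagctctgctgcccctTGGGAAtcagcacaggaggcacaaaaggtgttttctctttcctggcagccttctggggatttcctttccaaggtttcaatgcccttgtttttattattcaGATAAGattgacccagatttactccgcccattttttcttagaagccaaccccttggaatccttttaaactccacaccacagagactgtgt
Ang and Rnase4: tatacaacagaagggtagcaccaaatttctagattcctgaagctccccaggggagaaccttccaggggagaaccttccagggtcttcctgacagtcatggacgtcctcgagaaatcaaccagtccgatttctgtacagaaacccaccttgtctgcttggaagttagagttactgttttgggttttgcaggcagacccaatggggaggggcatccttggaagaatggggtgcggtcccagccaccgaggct
Rnase4, further promoter: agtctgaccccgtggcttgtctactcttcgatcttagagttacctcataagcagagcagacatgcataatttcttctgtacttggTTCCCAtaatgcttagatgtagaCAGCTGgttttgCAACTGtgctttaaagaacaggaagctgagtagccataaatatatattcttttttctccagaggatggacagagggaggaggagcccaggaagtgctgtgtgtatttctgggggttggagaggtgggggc
Ear5 held 2 matches to CANNTG, both reading CAAGTG, at 141 and 40 bases before the start, and none to TGGGAA. Rnase1 held 1 match to TGGGAA at 190 bases and 1 to GATAAG at 90 bases before the start, and none to CANNTG. The shared promoter of Ang and Rnase4 held none of the 3. The further promoter of Rnase4 held 2 matches to CANNTG, reading CAGCTG at 142 bases and CAACTG at 130 bases before the start, and 1 to TGGGAA on the opposite strand at 165 bases, and was the only one of the 4 sequences with both motifs. Among 32851 promoters of the same length 66.2% held CANNTG, 21.6% held TGGGAA, 6.55% held GATAAG and 14.8% held both of the first 2. A match is a run of letters and not a measured binding site, and binding was not analysed here.

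The targeted gene was low in every mutant library. Ptf1a had 566, 601 and 652 normalized read counts in control libraries 1, 2 and 3, against 19.8, 70.1 and 10.2 in Ptf1a cKO libraries 1, 2 and 3 (log2 difference −4.41 ± 0.49 (SE), adjusted p = 0.00033 by limma). Ptf1a cKO 2, the male of its group, kept 11.6% of the control mean, against 3.27% and 1.69% in the others. Over all genes 3475 (33.9%) passed an adjusted p of 0.05, 1724 (16.8%) lower and 1751 (17.1%) higher. The summed counts of named genes lay between 17949889 and 21175836 in controls and between 5527104 and 8981107 in Ptf1a cKO libraries, and the median gene lay between 125.0 and 128.5 in all 6. When the libraries were instead scaled to the same total, the median gene lay 1.49 higher in Ptf1a cKO on the log2 scale, and 98.7% of the genes past the threshold were higher rather than 50.4%. The study's methods give the number of aligned reads of each library, but the reads behind a gene's value cannot be recovered after the scaling, so no counting error is given.

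Rnase1 was lower in every Ptf1a cKO library than in any control. It had 368338, 349859 and 422697 normalized read counts in the controls, with a mean of 380298 ± 37863 (SD, n = 3). The Ptf1a cKO libraries had 61772, 143596 and 42861, with a mean of 82743 ± 53542 (SD, n = 3). The groups did not overlap, and Ptf1a cKO 2 stood well above the other mutants. The ratio of the means was 4.60, and the log2 difference was −2.39 ± 0.49 (SE). Relative to the control mean, Rnase1 was at 16.2%, 37.8% and 11.3% in Ptf1a cKO 1, 2 and 3, the same order as Ptf1a itself. Scaled to the same total the difference was −0.89, against a median gene at 1.49. In whole pancreas fewer acinar cells, less RNA per acinar cell and a share of acinar cells that kept Ptf1a cannot be told apart.

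Ear5 was at or near 0 in all 3 mutants. It had 103.1, 93.3 and 119.6 normalized read counts in the controls, with a mean of 105.3 ± 13.3 (SD, n = 3), and 1.03, 0 and 0.262 in Ptf1a cKO 1, 2 and 3. The controls differed little among themselves and lay far above all mutants. All Ptf1a cKO values were under a floor of 3 normalized counts, which sets Ear5 at least 35.1-fold lower than the control mean, and at least 12.3-fold lower with the libraries scaled to the same total. Ear5 was at 0 in Ptf1a cKO 2, the mutant library with the most Ptf1a and Rnase1, but values under the floor have no order. It was the only gene of the 10245 with all mutants at or under 3 and all controls above, whereas 9 genes had the opposite pattern. All genes of the table had a mean of at least 16.8 over the 6 libraries, and Ear5 reached that through the controls alone, so a difference was built into its being listed.

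**Figure D1:**
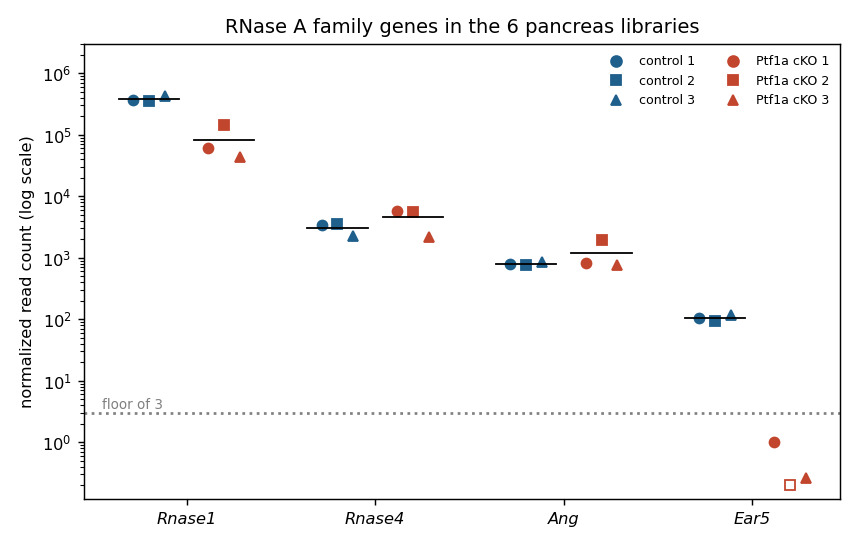
Normalized read counts (log axis) of the 4 RNase A family genes in each library, controls in blue and Ptf1a cKO in red, with bars at the group means where all values are above 0 and the dotted line at 3. Rnase1 and Ear5 are apart between the groups, Rnase4 and Ang overlap, and the open square at the bottom is the value of 0 for Ear5 in Ptf1a cKO 2.

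Rnase4 and Ang did not separate the groups. Rnase4 had 3432, 3522 and 2239 normalized read counts in the controls and 5846, 5601 and 2216 in Ptf1a cKO 1, 2 and 3. The first 2 mutants were above every control, while Ptf1a cKO 3 was just below the lowest. The log2 difference was 0.47 ± 0.35 (SE), and it ranged from 0.23 without Ptf1a cKO 1 to 0.93 without Ptf1a cKO 3. Without control 3, which was the lowest control, it was 0.26.

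Ang had 790, 766 and 849 normalized read counts in the controls and 827, 1950 and 755 in Ptf1a cKO 1, 2 and 3. Ptf1a cKO 2 was at 243% of the control mean, whereas the other 2 mutants lay at 103% and 94.2%. The log2 difference of 0.41 ± 0.31 (SE) rested on that library and was −0.019 without it. The ratio of Rnase4 to Ang was 7.07 in Ptf1a cKO 1 but between 2.64 and 4.60 in the other 5 libraries, so the 2 genes did not keep a constant ratio. Thus 2 of the 4 members had groups that did not overlap, beside 50.8% of all genes. Both were lower in all mutants than in all controls, beside 24.3% of all genes in that direction, and 0 were higher in all mutants, beside 26.5%. The members were chosen on this contrast, so nothing is read from these counts.

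Rnase1 was by far the most abundant member, also per length. Per kb of annotated exon its level was 383365 ± 38168 normalized counts in controls (SD, n = 3), the 12th highest of the genes with a known length, followed by Rnase4 at 1872 ± 437, Ang at 667 ± 35.5 and Ear5 at 139 ± 17.5. These 4 levels did not overlap among control libraries. In Ptf1a cKO libraries the per-kb level of Rnase1 was 83410 ± 53974, the 14th highest. Rnase4 at 2782 ± 1239 and Ang at 979 ± 557 then overlapped, because Ang in Ptf1a cKO 2 (1622 per kb) was above Rnase4 in Ptf1a cKO 3 (1354 per kb). Rnase1 made up between 98.8% and 99.2% of the summed counts of the 4 genes in controls and between 90.2% and 95.0% in Ptf1a cKO libraries. The share of Rnase4 was between 0.526% and 0.994% in controls and between 3.71% and 8.54% in mutants. That of Ear5 was between 0.0263% and 0.0281% in controls. The highest share recorded for Ear5 in a mutant was 0.0015%, but it comes from a value under the floor and is not a bound.

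Rnh1, the inhibitor of these enzymes, fell in every mutant. It had 2438, 2375 and 2214 normalized read counts in the controls and 803, 1091 and 700.3 in Ptf1a cKO 1, 2 and 3. The groups were apart, and Rnh1 was 2.71-fold lower in Ptf1a cKO (log2 difference −1.46 ± 0.16 (SE), adjusted p = 0.00036 by limma). With the libraries scaled to the same total the difference of Rnh1 was 0.036 (adjusted p = 0.88 by limma), below the median gene at 1.49 on that scale, and over all alternatives its adjusted p by limma ran from 1.6e-05 to 0.88. There were between 147 and 191 Rnase1 counts for each Rnh1 count in controls, against 76.9, 132 and 61.2 in Ptf1a cKO 1, 2 and 3. This ratio is free of library scaling and was lower in every mutant than in any control, with Ptf1a cKO 2 close to the controls. It was not tested because Rnase1 enters it.

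Plxnb2, the angiogenin receptor, rose slightly. It had 513, 456 and 467 normalized read counts in the controls and 571, 676 and 677 in Ptf1a cKO 1, 2 and 3, all above the highest control (log2 difference 0.42 ± 0.12 (SE), adjusted p = 0.024 by limma). The call was lost without control 2, control 3, Ptf1a cKO 2 or Ptf1a cKO 3, where the adjusted p by limma lay between 0.051 and 0.091. It was also lost with the libraries scaled to the same total outside digestive enzymes (adjusted p = 0.059 by limma), and over all alternatives the adjusted p ran from 2.5e-09 to 0.091.

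**Figure D2:**
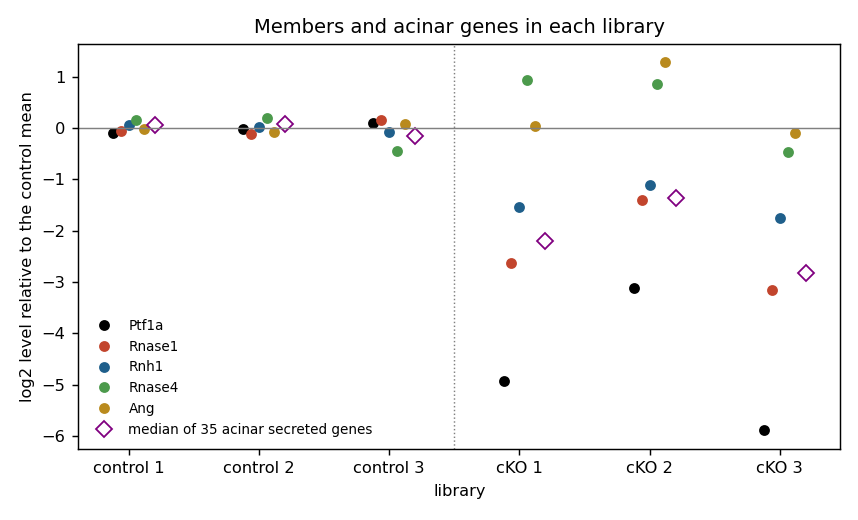
Log2 level of each gene relative to its control mean, by library, with open diamonds for the median of the 35 digestive enzyme and acinar secretory genes. In each Ptf1a cKO library Ptf1a is lowest, Rnase1 lies near the acinar median and Rnh1 lies above both, while Rnase4 and Ang lie between −0.47 and 1.28. Ear5 is not drawn because its mutant values are under the floor.

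The difference of Rnase1 lay among those of the other secreted products of acinar cells. Of 38 listed genes encoding digestive enzymes or other proteins that acinar cells secrete, 35 were in the table: 25 passed the threshold as lower, 1 as higher and 9 did not pass. Their median log2 difference was −2.10, beside 0.036 over all genes, of which 16.8% were lower and 17.1% higher at the threshold. With the libraries scaled to the same total 21 were lower and 6 higher, with a median of −0.61 beside 1.49 over all genes. Among these 35 genes 13 had a more negative difference than Rnase1 and 22 a less negative or positive one. The nearest gene with a more negative difference was Cela1, a pancreatic elastase, at −2.46. The nearest with a less negative one was Zg16, a zymogen granule lectin, at −2.25. Cela2a, another elastase, had the largest fall, with a log2 difference of −3.11 ± 0.69 (SE, adjusted p = 0.0090 by limma).

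The gene past the threshold as higher was Pla2g1b, the secreted pancreatic phospholipase A2, with 22450, 23176 and 20022 normalized read counts in controls and 69445, 31921 and 58925 in Ptf1a cKO 1, 2 and 3 (log2 difference 1.22 ± 0.31 (SE), adjusted p = 0.016 by limma). All mutants were above all controls, but the call was lost without any 1 of the controls or without Ptf1a cKO 1 (highest adjusted p 0.062 by limma). Dmbt1, a secreted scavenger receptor, was also above all controls in all mutants but did not pass (log2 difference 0.75 ± 0.38 (SE), adjusted p = 0.15 by limma). In the same libraries the acinar list median lay at −2.20, −1.37 and −2.82 relative to the control mean on the log2 scale, next to −2.62, −1.40 and −3.14 for Rnase1. Both were least reduced in Ptf1a cKO 2 and most in Ptf1a cKO 3. Of the summed counts of the 35 genes and Rnase1, Rnase1 took 1.99%, 1.91% and 2.77% in controls and 1.58%, 2.31% and 1.75% in Ptf1a cKO 1, 2 and 3. These shares overlapped between the groups. As a share of all named genes Rnase1 held between 1.66% and 2.35% in controls and between 0.775% and 1.60% in mutants.

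Of 7 acinar transcription factors, 4 were lower and 0 higher at the threshold, beside 16.8% and 17.1% of all genes. Their median was −1.05, and the counts were the same at an unadjusted p under 0.05 by limma. With the libraries scaled to the same total 3 were lower and 3 higher, and the median turned to 0.43, below the median gene at 1.49. Besides Ptf1a, the lower genes with the authors' scaling were its partner Rbpjl (−2.29) and Bhlha15, which supports the secretory apparatus (−2.19). Nr5a2, a nuclear receptor of the acinar programme, was the remaining lower gene (−1.05).

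Other RNA- and DNA-degrading enzymes and some related enzymes were counted beside the share over all genes. Of all genes 17.1% were higher and 16.8% lower at the threshold. Of 14 listed secreted and lysosomal nucleases and related enzymes 6 were in the table. Of these 3 were higher, 0 lower and 3 not past the threshold, with a median of 0.83. At an unadjusted p under 0.05 by limma, 4 were higher and still 0 lower. The higher genes were Nt5e, a surface enzyme that makes adenosine from AMP, Endod1 and Dnase1l1. The related enzymes with values were Nt5e, Enpp1 and Enpp2, so these counts are not of nucleases alone. Nt5e had 3.58, 3.60 and 11.6 normalized read counts in controls and 63.8, 11.1 and 82.5 in Ptf1a cKO 1, 2 and 3 (log2 difference 2.28 ± 0.68 (SE), adjusted p = 0.029 by limma). Its groups overlapped, since Ptf1a cKO 2 was below control 3, and its call was lost without control 1, control 2, Ptf1a cKO 1 or Ptf1a cKO 3 (highest adjusted p 0.11 by limma). The number of higher genes was 1 instead of 3 without control 1, control 2 or Ptf1a cKO 3.

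Of 36 listed genes of RNA processing and degradation inside the cell, here called intracellular ribonucleases, 35 were in the table. The list includes subunits of the RNA exosome, and not every listed gene encodes a ribonuclease itself. The threshold was passed by 5, 3 higher and 2 lower, and not by 30, beside 33.9% of all genes that passed it, and the median was 0.016. The higher genes were Cnot6, a deadenylase (0.74 ± 0.17 (SE), adjusted p = 0.011 by limma), Drosha, which cuts microRNA precursors, and Eri1. The lower ones were Exosc7, a subunit of the RNA exosome (−0.65 ± 0.14 (SE), adjusted p = 0.0074 by limma), and Angel2. These counts were small, with between 1 and 4 higher and between 1 and 3 lower when 1 library was left out, and all 35 were higher with the libraries scaled to the same total.

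**Figure D3:**
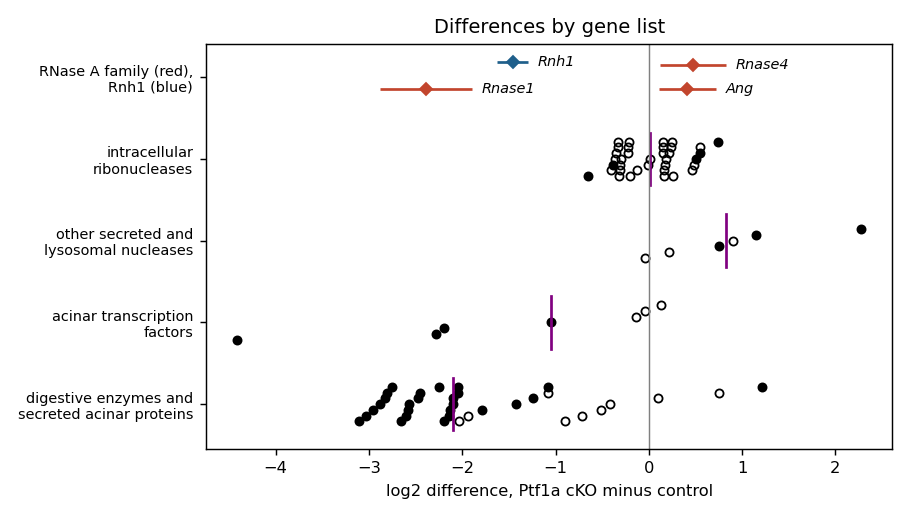
Log2 difference (Ptf1a cKO minus control) of every gene in 4 lists, filled where the adjusted p was under 0.05, with purple lines at list medians. Rnase1 (red, with SE) lies within the digestive enzymes, and Rnh1 (blue) lies above the median of that list but within its spread. Rnase4 and Ang lie above 0 within the spread of the ribonucleases. Ear5 is left out because its mutant values are under the floor.

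Markers of other cell types were measured because eosinophil-associated ribonucleases are also made by leukocytes. None of 8 listed eosinophil markers and none of 6 neutrophil markers were among the genes with values, so these cells were not analysed here. Beside the counts that follow, 17.1% of all genes were higher and 16.8% lower at the threshold. Of 10 macrophage genes with values 9 were higher and 0 lower in Ptf1a cKO. Their summed levels lay between 640.4 and 1122 normalized counts in controls and between 1785 and 2887 in mutants. Of 5 genes shared by leukocytes 3 were higher, with sums between 222 and 348 in controls and between 322 and 1347 in mutants. The highest sum was that of Ptf1a cKO 3, which had 419 counts of Ptprc, the common leukocyte antigen. Ear5 was at or near 0 in all mutants, and which cells its control values came from was not tested. Of 7 ductal genes 4 were higher and 0 lower, with sums between 3977 and 4901 in controls and between 25846 and 110284 in mutants. In the mutants, but not in the controls, most of this sum was Spp1, a secreted phosphoprotein. Of 8 endothelial genes 1 was higher and 0 lower, with sums between 805 and 1055 in controls and between 830 and 1060.1 in mutants. Of 6 islet genes 0 passed the threshold, of 4 adipocyte genes 1 was higher, and Kit, the single mast cell gene with values, was higher. At an unadjusted p under 0.05 by limma, 0 islet genes passed, and 0 genes of the macrophage, leukocyte, ductal and endothelial lists were lower. The part of these cells in the levels of the 4 members was not tested.

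Rnase1 and Ear5 are adjacent protein-coding genes that point away from each other, with 15.5 kb between their start sites (GENCODE, GRCm38). A further 7 genes with values lie within 400 kb of the Rnase1 start, a window chosen after the values were seen. Their log2 differences lay between −0.24 and 0.82, and 0 of the 7 were lower at the threshold or at an unadjusted p under 0.05 by limma. Over all genes 16.8% were lower at the threshold, so a count of 0 among 7 is not a result about this region. The single call was Pnp, a purine nucleoside phosphorylase 216 kb away, which was higher at 0.82 ± 0.20 (SE, adjusted p = 0.014 by limma). Rnase4 and Ang lie between these genes and Rnase1, 55.7 and 55.6 kb from its start.

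**Figure D4:**
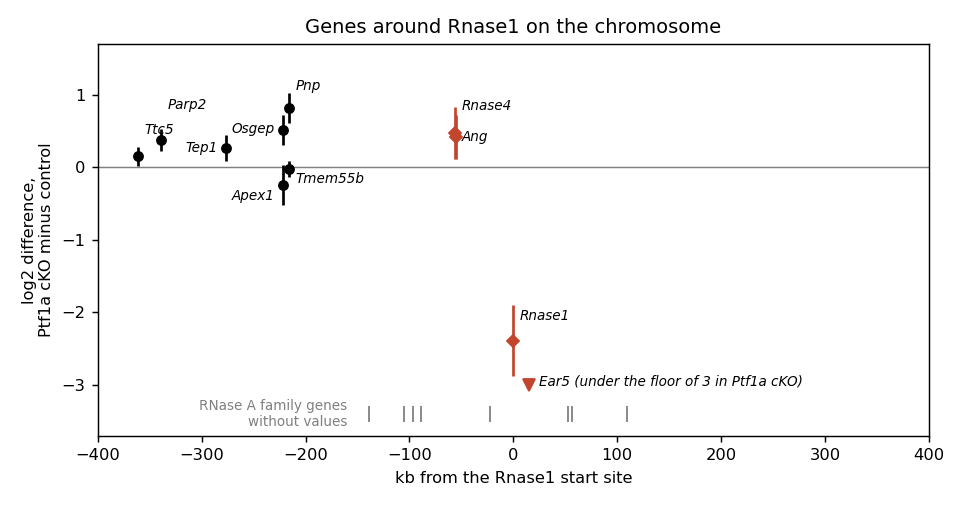
Log2 difference with SE of each gene with values against the distance of its start from that of Rnase1 in kb, family members in red. Rnase1 lies at −2.39 and the other genes drawn at their log2 difference lie between −0.24 and 0.82. The triangle marks only the position of Ear5 along the chromosome. Its height is not a value, because the mutant values are under the floor. Grey ticks mark family genes without values.

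Likeness over the 6 libraries was measured by Pearson's r of log2 values, which mainly follows the difference between the groups and is given as a description. The 5 genes most like Rnase1 were Gatm, Mrps2, Nfkbil1, Brsk2 and Bhlha15, all at r of 0.998 or 0.999, and 77 genes reached 0.99 or more. Ptf1a had an r of 0.995 with Rnase1, Rnh1 0.982 and Ear5 0.908. After the group means were removed the closest were Eif4a3, Larp1, Gatm, Calu and Mrps2, so that Gatm and Mrps2 stood in both sets. With the group means removed, Ang had an r of 0.977 with Rnase1 and Rnase4 0.568, whereas the r of the log2 values was −0.038 and −0.18. Among mutants Ang and Rnase1 were both highest in Ptf1a cKO 2 (1950 and 143596 normalized read counts). The r without that library was not computed. By Spearman's rho 175 genes were tied at 1 with Rnase1, among them 3 of the first 5.

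For Ear5 the closest genes were Dhrs3, Sstr2, Erf, Ceacam1 and Try5, with r between 0.996 and 0.999, and 30 genes reached 0.99 or more. After the group means were removed they were Slc35a1, Tsn, Saal1, Psmb1 and Ccdc77, none of which was in the first set, and the r of Ear5 with Rnase1 was −0.25. The mutant values of Ear5 under the floor enter these correlations, and the 6 libraries share their scaling.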

How the data were processed

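Total RNA from the whole pancreas of 6 mice was sequenced by the authors as 50-nucleotide single-end reads from libraries made with an Illumina kit. The submitters' processing notes name TopHat2 2.0.4, HTSeq 0.6.0 and the mm9 build, and the study's methods name edgeR with TMM scaling. The strand setting of the counting is not given in the sources used here. The authors deposited a single signal per gene and library, namely normalized read counts with decimals, from which whole reads could not be recovered, so no read-count model was fitted. A further 3 entries of the deposited file name no gene (75.7% to 82.6% of each library's sum) and were left out, which kept 10245 genes. A spreadsheet had turned 17 symbols into dates.

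Values were divided by 13.6 (1 factor for all libraries), and log2(value + 0.25) was compared by limma 3.58.1 in R 4.3.3 (lmFit, eBayes with a trend, two-sided, Benjamini-Hochberg over all genes, threshold 0.05). Differences on this scale understate those of low genes. Other values were computed in Python 3.11.15. The floor of 3 normalized counts is for a group with all libraries at or under it. Lengths, positions and coding sequences came from GENCODE (GRCm38), not the deposited build, with 484 symbols matched through an older name and 81 unmatched. Promoters came from RefSeq (GRCm38.p6), and all 4 members matched.

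The members and gene lists were chosen with earlier results of these data known. Genes named were the members, Rnh1, Plxnb2, Ptf1a, the largest rise and fall past the threshold in each list, and the 5 genes most like Rnase1 and Ear5. Other genes named were chosen after their values were seen. Each mouse is 1 replicate. Same-numbered libraries had deviations correlated at 0.039, 0.13 and 0.14 across genes, so the numbers were not taken as pairs. Of 4 listed family genes with higher numbers (Rnase10 to Rnase13), 0 were in the table. Alternatives were other pseudocounts (0.05 and 1), filters, scalings, trends, sex as a covariate, a replicate block, and each library left out.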

Additional observations from a re-analysis of the deposited data

How the results depend on the processing

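Scaling to the same total was the alternative that moved most. It gave 9719 genes past the threshold, Rnase1 at −0.89, Rnase4 at 1.97, Ang at 1.91, Ear5 at least 12.3-fold lower, and Rnh1 at 0.036, the reverse of its direction. Exosc7 was also reversed, at 0.80. On that scale the median gene stood at 1.49, against 0.036 with the authors' scaling. Which of the 2 scalings is nearer to the amounts of RNA in the tissue was not tested. Plxnb2 was at 0.40 and not past the threshold with the same total outside digestive enzymes, and the cause was not tested. When 1 library was left out, between 2363 and 3601 genes passed, Rnase1 lay between −2.88 and −2.01, Rnase4 between 0.23 and 0.93, Ang between −0.019 and 0.66, the bound for Ear5 between 32.7 and 37.1, Rnh1 between −1.64 and −1.32, and Plxnb2 between 0.37 and 0.50. With the replicate number as a block, 3525 genes passed. In the intracellular ribonuclease list 1 gene was lower instead of 2, because Angel2 no longer passed (adjusted p = 0.072 by limma). Rnh1, Plxnb2, Ptf1a, Nt5e, Cnot6, Exosc7, Pla2g1b and Cela2a kept their calls under the block. Outside the same-total scaling 360 of 396 recomputed values were labelled as unchanged. Where the value was not a count, this meant the same direction and side of the threshold, or a move of less than the spread. Counts of genes were labelled unchanged within a fixed factor of the main count, so that 2363 genes passing in place of 3475 had this label. Read-count models were not run, because whole reads could not be recovered. The reads behind a value cannot be recovered, so a low Ear5 level in the mutants is not shown to be absence.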
